A study of Mus musculus with 6 samples.

Results

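Genes of resting lung fibroblasts were followed in bulk RNA-Seq of mouse lung cells sorted on cell-surface Lamp1. They are 9 of the 49315 genes in the count table, taken by gene name: 6 genes of alveolar fibroblasts (Pdgfra, Tcf21, Npnt, Inmt, Ces1d and Wnt2) and 3 genes of adventitial fibroblasts (Pi16, Dpt and Dcn). Sham-treated C57BL/6 mice received sterile saline and BLM-treated C57BL/6 mice received bleomycin sulfate, both by oropharyngeal instillation, and the lungs were dissociated 21 days later. From each treatment there was 1 library of unsorted cells, 1 of Lamp1-depleted cells and 1 of Lamp1-enriched cells. The study's methods give male C57BL/6J mice, 2 to 3 lungs of a group pooled per tube and an anti-Lamp1 antibody for the sort. No transgene or mutant allele was named for any group. The age of the mice, and which bleomycin dose these mice received, are not given in the sources used here. With 1 library per condition, no difference between treatments has a replicate check.

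Alveolar fibroblasts lie in the walls between the air spaces, next to the epithelium and the capillaries, and carry the Pdgf receptor alpha and the transcription factor Tcf21. They supply matrix, growth factors and Wnt ligands to the alveolar niche. Adventitial fibroblasts lie in the cuffs around the larger vessels and airways, where they produce collagen-binding matrix proteins such as decorin and dermatopontin, and part of them carry Pi16. Bleomycin injures the alveolar epithelium and is used to produce lung fibrosis in mice.

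Counted reads per library ranged from 30236120 to 52918696. The BLM Lamp1-depleted library stood apart: 38.4% of its reads fell on Gm26917, a noncoding RNA gene to which ribosomal RNA reads are often assigned, and its TMM factor was 0.699, against factors of 0.993 to 1.19 in the other libraries. Lamp1 itself was at 146 CPM (counts scaled to a common library size) in sham Lamp1-depleted and 491 in sham Lamp1-enriched cells, and at 111 and 378 in the BLM libraries. In unsorted cells it was at 319 CPM in sham and 501 in BLM, so that the BLM Lamp1-enriched level was under the unsorted level and the sham one above it. All 10 pan-fibroblast genes examined, among them Col1a1, Col3a1 and Bgn, had reads in each of the 6 libraries.

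The windows around the annotated starts of 3 members are shown because these genes took the 3 courses described below: Inmt was the member with the lowest BLM over sham ratio, Pi16 was the member that was higher after BLM, and Dpt is listed as adventitial but followed the alveolar members. The sequences are RefSeq promoters of build GRCm38.p6, from 250 bases before to 50 bases after the start, in the direction of transcription. Capitals mark matches on either strand to 4 motifs. The motif TATAAA is the TATA box and CCAAT is the site of the nuclear factor Y complex. The motif CAGCTG is an E-box, the kind of site that helix-loop-helix factors such as Tcf21 bind, and it is also a match to the wider E-box pattern CANNTG, which 72.3% of windows held. The motif TAAACA is a forkhead site. The Inmt window is chr6:55174941-55175240 on the minus strand, the Pi16 window is chr17:29318632-29318931 on the plus strand and the Dpt window is chr1:164796413-164796712 on the plus strand.
Inmt: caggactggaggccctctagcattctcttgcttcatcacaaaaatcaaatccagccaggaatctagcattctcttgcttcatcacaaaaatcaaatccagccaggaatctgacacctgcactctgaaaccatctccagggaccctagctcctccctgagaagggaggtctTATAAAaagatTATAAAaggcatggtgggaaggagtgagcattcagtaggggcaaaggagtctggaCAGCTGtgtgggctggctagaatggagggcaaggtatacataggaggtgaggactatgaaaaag
Pi16: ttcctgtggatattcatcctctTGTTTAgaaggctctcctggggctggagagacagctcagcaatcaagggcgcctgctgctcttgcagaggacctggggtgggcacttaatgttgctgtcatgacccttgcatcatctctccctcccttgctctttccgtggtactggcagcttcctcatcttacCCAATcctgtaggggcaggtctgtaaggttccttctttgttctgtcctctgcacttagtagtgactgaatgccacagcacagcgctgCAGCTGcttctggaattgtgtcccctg
Dpt: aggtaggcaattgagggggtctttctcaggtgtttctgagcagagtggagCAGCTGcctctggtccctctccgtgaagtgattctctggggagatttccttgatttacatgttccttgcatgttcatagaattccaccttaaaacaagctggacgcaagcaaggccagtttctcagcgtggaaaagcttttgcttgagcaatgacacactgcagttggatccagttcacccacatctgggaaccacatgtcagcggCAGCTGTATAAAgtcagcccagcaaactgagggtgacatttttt
The Inmt window held 2 matches to TATAAA, at 80 and 69 bases before the start, and 1 match to CAGCTG at 14 bases before it. Dpt held 2 matches to CAGCTG, the first at 200 bases before the start. The second began at base 7 from the start on, directly before its single TATAAA at base 13, so that this TATAAA lay after the start. Pi16 held 1 E-box after the start, and 1 forkhead motif and 1 CCAAT before it. Among 32851 RefSeq promoter windows of the same length, 13.6% held TATAAA, 37.4% held CCAAT, 16.3% held CAGCTG and 13.4% held TAAACA. Promoters were found for 7 of the 9 members, without Ces1d and Dcn, and Wnt2 held 1 CCAAT, while Pdgfra, Tcf21 and Npnt held none of the 4 motifs. A match is a description of these letters and not of binding. The Inmt, Pi16 and Dpt starts are those of RefSeq, and the spans of the genes given below are from another annotation, whose outer ends can differ.

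Levels are given in CPM with TMM factors, and each log2 ratio has a 95% Clopper-Pearson counting interval, which covers counting error alone. A member is called higher or lower at 2-fold or more. In bulk samples, fewer cells of a type and less RNA per cell cannot be told apart.

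Gene positions are those of GENCODE M21 on GRCm38, and all 9 members are protein-coding. Pdgfra (chr5:75152292-75198215, plus strand), the receptor for platelet-derived growth factors, was at 131 CPM in unsorted, 21.3 in Lamp1-depleted and 64.2 in Lamp1-enriched cells of sham-treated mice, and at 42.8, 8.90 and 39.9 CPM in the same order in BLM-treated mice. Its level was highest in sham unsorted cells, and the intervals of the BLM unsorted and BLM Lamp1-enriched levels overlapped. BLM over sham, the log2 ratio was -1.61 in unsorted cells (-1.69 to -1.53). Tcf21 (chr10:22817281-22820174, minus strand), a transcription factor of lung mesenchyme, was at 11.4 CPM in unsorted, 2.59 in Lamp1-depleted and 6.95 in Lamp1-enriched cells of sham-treated mice, and at 2.48, 1.14 and 2.55 CPM in BLM-treated mice. The sham Lamp1-depleted, BLM Lamp1-enriched and BLM unsorted levels had overlapping intervals. Its log2 ratio in unsorted cells was -2.19 (-2.52 to -1.88).

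Npnt (chr3:132881745-132950291, minus strand) encodes nephronectin, a matrix ligand of the integrin that contains Itga8. It was at 139 CPM in unsorted, 22.0 in Lamp1-depleted and 83.3 in Lamp1-enriched cells of sham-treated mice, and at 46.8, 10.6 and 47.9 CPM in BLM-treated mice. The order of the libraries was that of Pdgfra except for the BLM unsorted and BLM Lamp1-enriched levels, whose intervals overlapped in both genes. In unsorted cells the log2 ratio was -1.57 (-1.65 to -1.50). Wnt2 (chr6:17988940-18030585, minus strand), a secreted Wnt ligand needed for lung development, was the member with the fewest reads, with 174 reads (3.58 CPM) in sham unsorted, 22 (0.483 CPM) in sham Lamp1-depleted and 91 (1.98 CPM) in sham Lamp1-enriched cells. In BLM-treated mice it had 25 reads (0.634 CPM) in unsorted, 0 in Lamp1-depleted and 34 (0.624 CPM) in Lamp1-enriched cells. The intervals of its BLM unsorted, BLM Lamp1-enriched and sham Lamp1-depleted levels overlapped. The log2 ratio in unsorted cells was -2.48 (-3.17 to -1.89).

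Inmt (chr6:55170626-55175043, minus strand) encodes indolethylamine N-methyltransferase, an enzyme that methylates tryptamine and related amines. It was at 237 CPM in unsorted, 31.5 in Lamp1-depleted and 110.2 in Lamp1-enriched cells of sham-treated mice. In BLM-treated mice it was at 17.3, 9.56 and 17.9 CPM in this order, so that each BLM level was under each sham level. The BLM over sham ratio of unsorted cells was -3.77 on the log2 scale (-3.89 to -3.66), which is 13.7-fold lower. Ces1d (chr8:93166068-93197838, minus strand), a carboxylesterase that hydrolyses lipids and drugs, was at 42.2 CPM in unsorted, 5.66 in Lamp1-depleted and 19.5 in Lamp1-enriched cells of sham-treated mice, and at 20.2, 4.50 and 10.1 CPM in BLM-treated mice. Its intervals overlapped between BLM unsorted and sham Lamp1-enriched cells, and between the Lamp1-depleted cells of the treatments. Of the alveolar members it had the ratio nearest to 0 in unsorted cells, -1.06 (-1.19 to -0.95). The 7 Ces1 paralogs together summed to between 0.0439 and 1.77 CPM per library, under the Ces1d level of every library.

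Pi16 (chr17:29317680-29330593, plus strand), a secreted protein of the family of cysteine-rich proteins, was at 4.33 CPM in unsorted, 2.90 in Lamp1-depleted and 2.24 in Lamp1-enriched cells of sham-treated mice, and at 8.87, 19.1 and 4.16 CPM in BLM-treated mice. It was highest in the BLM Lamp1-depleted library, where 8 of the 9 members had their lowest level. In unsorted cells the log2 ratio was 1.03 (0.79 to 1.29). The annotation places an antisense transcript on the other strand over 222 bases of its exons, and the strand setting of the counting is not given in the sources used here, so reads of the 2 cannot be told apart. Pdgfra also shares exon bases with genes on the other strand, and those had at most 26 reads in any library.

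Dpt (chr1:164796644-164824266, plus strand) encodes dermatopontin, a matrix protein that binds decorin and collagen. It was at 34.2 CPM in unsorted, 4.04 in Lamp1-depleted and 20.2 in Lamp1-enriched cells of sham-treated mice, and at 9.10, 1.89 and 14.0 CPM in BLM-treated mice. No neighbouring levels in this order overlapped, and the log2 ratio in unsorted cells was -1.91 (-2.08 to -1.75). Dcn (chr10:97479609-97518143, plus strand) encodes decorin, a proteoglycan that binds collagen fibrils and growth factors. It was at 45.8 CPM in unsorted, 12.6 in Lamp1-depleted and 16.7 in Lamp1-enriched cells of sham-treated mice, and at 46.6, 5.21 and 30.3 CPM in BLM-treated mice. Its unsorted levels had overlapping intervals, with a log2 ratio of 0.025 (-0.065 to 0.11), which was -0.24 with total counts only and -0.15 with totals that leave out Gm26917 and Gm42418.

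**Figure D1:**
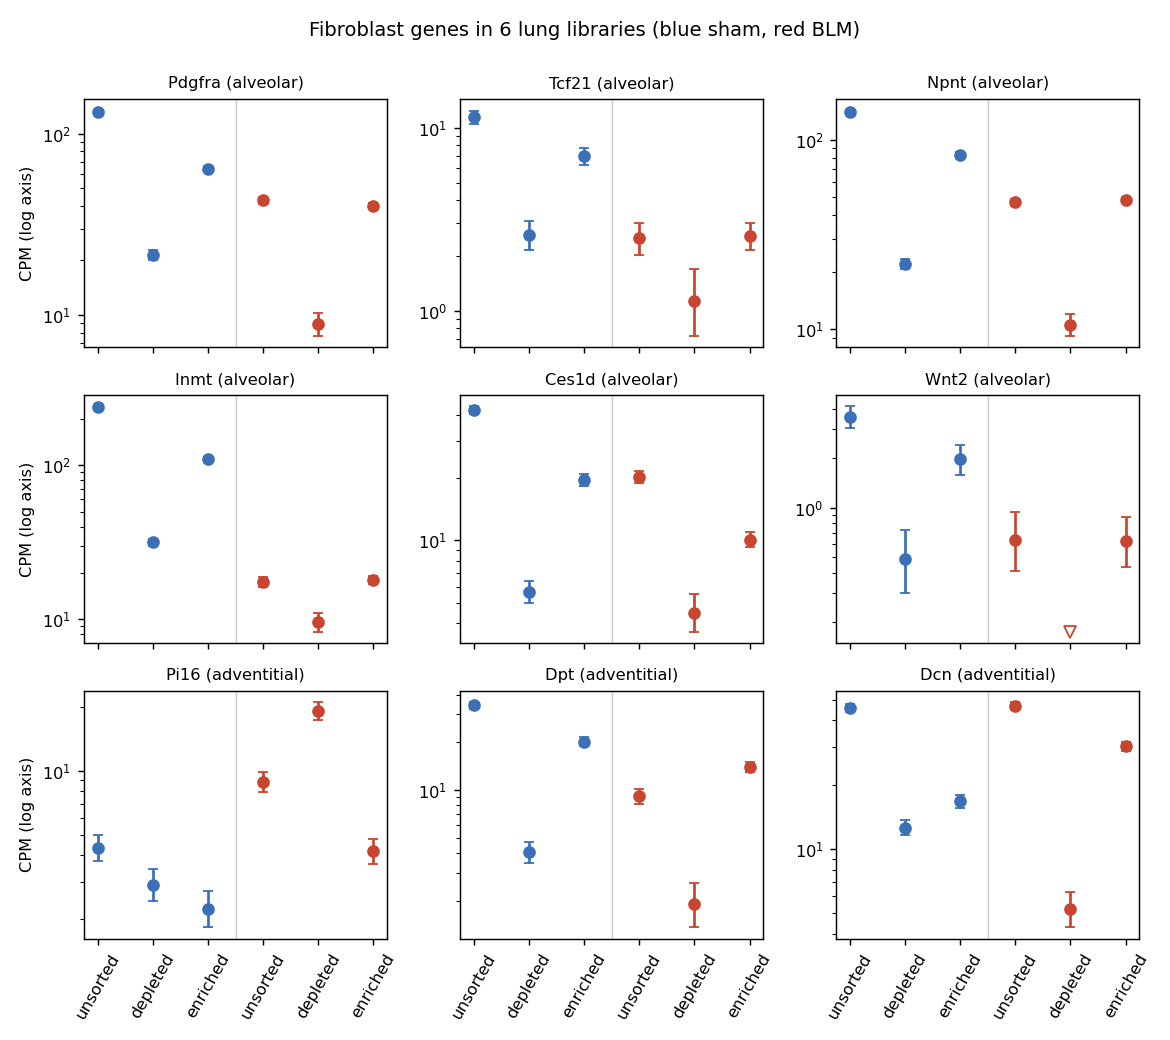
Level of each member in the 6 libraries, in CPM after TMM scaling on a log axis with a range of its own in each panel; blue points are sham and red points BLM, the bars are 95% counting intervals, and the open triangle is the upper limit of the interval of Wnt2 at 0 reads. The 6 alveolar members and Dpt were highest in sham unsorted cells and lowest in BLM Lamp1-depleted cells, where Pi16 was highest at 19.1 CPM.

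By set, all 6 alveolar members were lower by 2-fold or more in unsorted cells of BLM-treated mice, and the adventitial members went 3 ways: Pi16 was called higher, Dpt was called lower and Dcn was not called. Together 7 of the 9 members were lower, where 16% of the 22772 genes tested were, and 1 was higher, where 13.9% were. The median log2 ratio was -1.90 for the alveolar and 0.025 for the adventitial members, against -0.07 for all genes tested. The alveolar minus adventitial difference of -1.93 was -0.96 without Pi16, an alternative added after its values were seen. With total counts only, or with totals that leave out Gm26917 and Gm42418, Pi16 was not called, and 0 members were higher.

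In Lamp1-enriched cells the alveolar members again lay below the adventitial median, and each alveolar ratio was nearer to 0 than in unsorted cells. Inmt had a log2 ratio of -2.62 (-2.72 to -2.52), Wnt2 of -1.65 (-2.28 to -1.08) and Tcf21 of -1.44 (-1.75 to -1.16), and these were the 3 members called lower, where 7.81% of genes were. Pdgfra was at -0.69, Npnt at -0.80, Ces1d at -0.95 and Dpt at -0.53. Pi16 had a ratio of 0.89 (0.55 to 1.25) and Dcn of 0.86 (0.74 to 0.99), both under 2-fold, so that no member was called higher, where 10.2% of genes were. The alveolar median was -1.20 and the adventitial median 0.86, a difference of -2.06 that was -1.36 without Pi16.

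In Lamp1-depleted cells, the ratios of which rest on the library with 38.4% of its reads on Gm26917, the median was -1.22 for the alveolar members, -1.09 for the adventitial members and -0.21 for all genes. The adventitial median stands for members far apart, and the alveolar minus adventitial difference of -0.13 by medians was -1.94 by means, or -1.34 with Wnt2 at its bound. Here 7 members were lower, where 22.3% of genes were, and Pi16 was higher with a log2 ratio of 2.71 (2.43 to 3.01), where 13.7% were. Wnt2 was 3.40-fold lower with its BLM reads set to a floor of 3, a bound that leaves out the counting error of its 22 sham reads. Dcn was at -1.27 (-1.58 to -0.97), the opposite sign to its ratio in Lamp1-enriched cells. Ces1d was the alveolar member not called, at -0.33 (-0.69 to 0.01). With total counts only, every ratio of these libraries was lower by 0.72, since the Gm26917 reads then count towards the total.

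**Figure D2:**
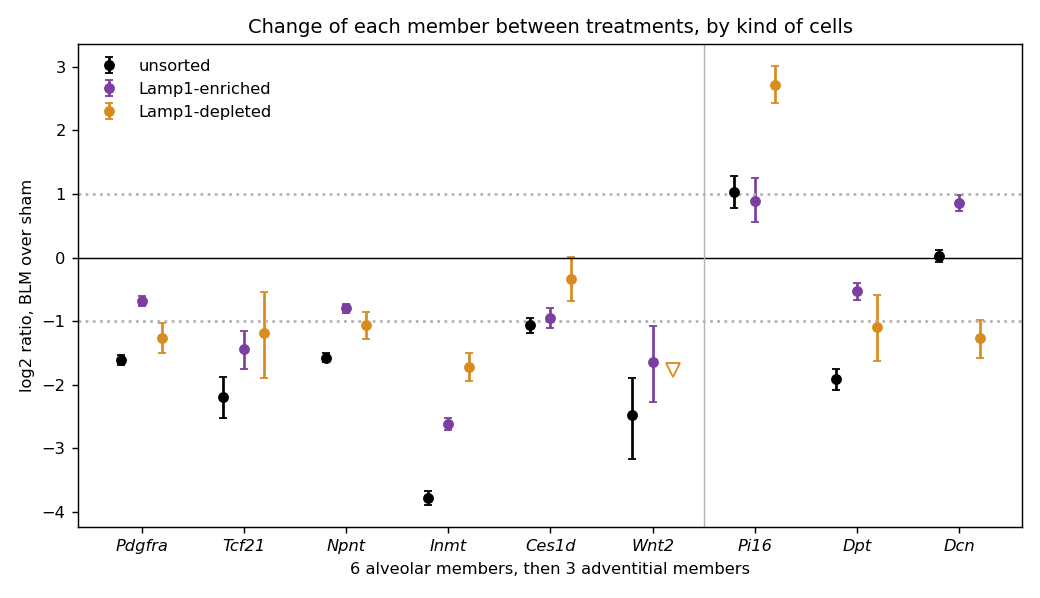
Log2 ratio of BLM over sham for each member in unsorted (black), Lamp1-enriched (purple) and Lamp1-depleted cells (orange), with 95% counting intervals. Dotted lines mark 2-fold, and the open triangle is Wnt2 with its 0 reads set to 3, which is 3.40-fold lower. The 6 alveolar members and Dpt lie below 0 in each kind of cells, Pi16 lies above 0 in each, and Dcn has a sign that depends on the kind of cells.

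Lamp1-enriched cells were compared with Lamp1-depleted cells to ask how the sort divided these genes. In sham-treated mice the 6 alveolar members were all higher in Lamp1-enriched cells, with log2 ratios between 1.42 for Tcf21 (1.12 to 1.74) and 2.01 for Wnt2 (1.35 to 2.78). Dpt, with 2.32 (2.09 to 2.56), was above each of them. Dcn was at 0.41 (0.25 to 0.57) and Pi16 at -0.37, with an interval of -0.76 to 0.01 that includes 0. In all, 7 members were higher, where 27.5% of genes were, and 0 lower, where 25.2% were. The alveolar median was 1.80 and the adventitial median 0.41, and their difference of 1.39 was 0.97 by means and 0.43 without Pi16.

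In BLM-treated mice Dcn had a log2 ratio of 2.54 (2.26 to 2.83) and Dpt of 2.88 (2.43 to 3.38), while Pi16 had one of -2.19 (-2.44 to -1.96). Pdgfra was at 2.16 (1.95 to 2.39) and Npnt at 2.18 (1.98 to 2.39), against 1.59 and 1.92 in sham. Inmt was the alveolar member under 2-fold, at 0.91 (0.69 to 1.13), against 1.81 (1.72 to 1.89) in sham, and with total counts only it was called, at 1.47. Wnt2, at 0 reads in the Lamp1-depleted library, was 4.39-fold higher in Lamp1-enriched cells with those reads set to 3, the bound used here. The lower limit of its counting interval, which also covers the error of its Lamp1-enriched reads, was a log2 ratio of 1.76. Altogether 7 members were higher, where 34.4% of genes were, and Pi16 was lower, where 22.6% were. The median was 1.66 for the alveolar members (1.65 with Wnt2 at its bound), 2.54 for the adventitial members and 0.29 for all genes tested. The sign of the alveolar minus adventitial difference rests on the summary: it was -0.87 by medians and 1.15 by means (0.54 by means with Wnt2 at its bound). With total counts only, each of these ratios was higher by 0.56. Against unsorted cells, a ratio that does not use the Lamp1-depleted library, BLM Lamp1-enriched cells had log2 ratios of 0.62 for Dpt (0.44 to 0.80), -0.62 for Dcn (-0.72 to -0.53) and -1.09 for Pi16 (-1.34 to -0.85).

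**Figure D3:**
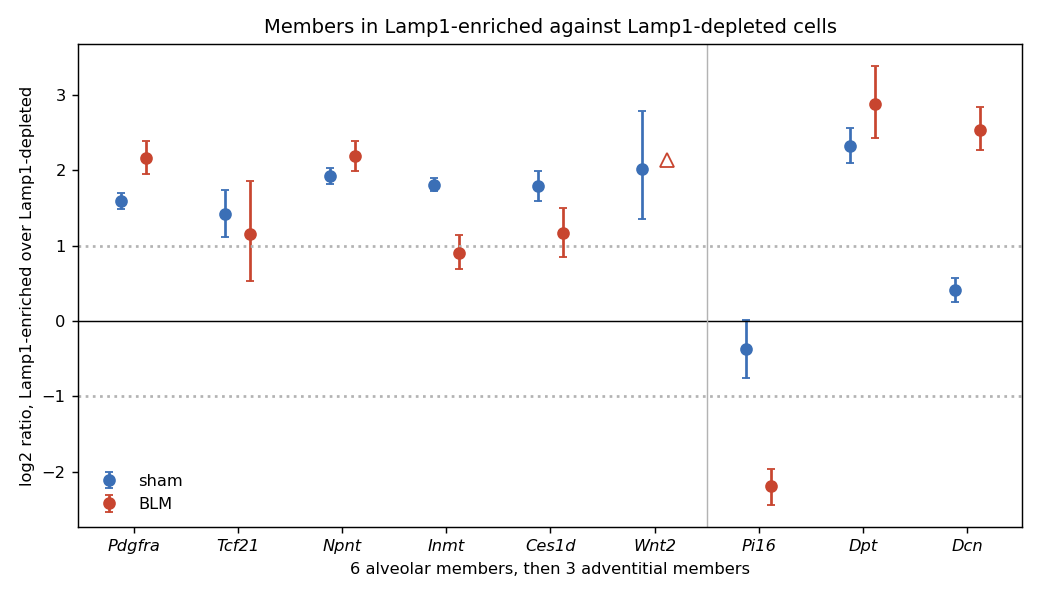
Log2 ratio of Lamp1-enriched over Lamp1-depleted cells for each member in sham (blue) and BLM (red), with 95% counting intervals. Dotted lines mark 2-fold, and the open triangle is Wnt2 with its 0 reads set to 3, which is 4.39-fold higher. The alveolar members and Dpt lie above 0 in both treatments, Dcn moves from 0.41 in sham to 2.54 in BLM, and Pi16 lies at -0.37 and -2.19.

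The sort itself was tested once, over both treatments, with edgeR's quasi-likelihood test in which the treatment was a blocking term for the 4 sorted libraries. This test rests on 1 residual degree of freedom and tests neither treatment alone. Its prior degrees of freedom were infinite, so the dispersion came from all genes together. A gene's own disagreement between the treatments therefore did not widen its error. Dcn, with sorting log2 ratios of 0.41 in sham and 2.54 in BLM, and Pi16, with -0.37 and -2.19, are such genes. At the threshold of 0.05 on the adjusted p, 40.7% of the 20593 genes were called. Genes that rose in Lamp1-enriched cells were 21.5% of those tested, and genes that fell were 19.2%. Of the 9 members, 7 rose in Lamp1-enriched cells and Pi16 fell. Dpt had a log2 fold change of 2.50 (SE 0.43, adjusted p = 6.63e-08 by edgeR), Npnt of 1.95 (SE 0.35, adjusted p = 2.84e-07) and Pdgfra of 1.78 (SE 0.35, adjusted p = 3.86e-06). These are the 3 members whose calls held in every alternative run. Ces1d (1.39, SE 0.41, adjusted p = 0.00305 by edgeR), Dcn (1.36, SE 0.39, adjusted p = 0.00217), Inmt (1.27, SE 0.35, adjusted p = 0.00129), Wnt2 (2.76, SE 0.99, adjusted p = 0.0152) and Pi16 (-1.40, SE 0.46, adjusted p = 0.00742) each lost the call in a fit without the block, with adjusted p between 0.0577 and 0.232 by edgeR. Tcf21, with a log2 fold change of 1.21 (SE 0.53), missed the threshold with an adjusted p of 0.0559 by edgeR. Other cell types moved in the same test: all 8 endothelial genes rose (median log2 fold change 3.20), as did 4 of 5 pericyte genes (2.35), 5 of 8 epithelial genes (1.51) and all 4 smooth muscle genes tested (2.83). All 8 leukocyte genes, which are Ptprc and genes of B, T and natural killer cells, fell (-4.25). Of the 8 macrophage genes 0 rose and 2 fell (0.17), and of the 5 mesothelial genes 1 rose and 0 fell (0.23). Their part in the calls of the members was not tested.

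Against unsorted cells the members lay low in both sorted fractions of sham-treated mice. All 9 were higher in sham unsorted cells than in either sorted library, each with counting intervals off 0, and Pdgfra, Inmt, Ces1d and Dcn by 2-fold or more, where 7.68% of genes were. The Lamp1-enriched over unsorted log2 ratio ranged from -0.71 for Tcf21 (-0.91 to -0.51) to -1.46 for Dcn (-1.58 to -1.34), and 4 members were called lower, where 15.8% of genes were. In BLM-treated mice 4 members (Pdgfra, Ces1d, Wnt2 and Dcn) were higher in unsorted cells than in both sorted libraries, 3 of them with intervals off 0 and 0 by 2-fold or more, where 9.34% of genes were. The exception was Wnt2, at 0.634 CPM in unsorted and 0.624 CPM in Lamp1-enriched cells, an order that turned with total counts only. For the 6 alveolar members the median Lamp1-enriched over unsorted log2 ratio was -0.94 for sham cells, and for BLM cells it was 0.0063. The corresponding medians of all genes were -0.03 and 0.04. In BLM Pi16 was the single member called lower, where 19.1% of genes were, and 2 members were lower with DESeq2 size factors. On this ratio the 10 pan-fibroblast genes had a median of -0.81 for sham and 0.06 for BLM cells, the 8 endothelial genes one of 0.68 and 1.43, and the 5 mesothelial genes one of -3.17 and -1.61. In Lamp1-depleted cells 8 members were lower than in unsorted cells of sham-treated mice, where 30.4% of genes were lower and 18.3% higher, and Pi16 was the member not called. In BLM-treated mice 7 members were lower in this ratio, where 33.6% of genes were, and Pi16 was higher, where 16.9% were. Inmt was the member not called there, at -0.86. The part of cells lost or damaged in the sort was not tested.

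Levels of different genes were compared within a library per kilobase of exon, as FPKM, in shares and ratios that no scaling between libraries affects. The length of a gene was that of all its annotated exons merged, such as 5838 bases for Dcn and 10024 for Pdgfra. No other length was tried, and the shares and the size of a ratio of 2 genes depend on these lengths. The fold by which such a ratio differs between libraries does not. In sham-treated mice the alveolar members made up 88.3% of the summed FPKM of the 9 members in unsorted cells, 85.8% in Lamp1-depleted and 87.4% in Lamp1-enriched cells. In BLM-treated mice the share was 70.0%, 69.5% and 68.5% in the same order, so that it was lower in each BLM library. Much of this share is Inmt: without it, in a calculation added after its values were seen, the share was 69.6%, 67.4% and 70.1% in sham and 61.5%, 51.8% and 57.8% in BLM. The lower share in BLM Lamp1-depleted cells also depends on Pi16. It had 2.998 of the 4.988 FPKM summed over the adventitial members there, against 0.455 of 4.949 in sham Lamp1-depleted cells. The share without Pi16 was not calculated, so a lower share of the alveolar members against Dpt and Dcn alone is not shown for these cells. Inmt had the highest FPKM of the members in each library. It was 11.4 times that of Pdgfra in unsorted, 9.25 times in Lamp1-depleted and 10.8 times in Lamp1-enriched cells of sham-treated mice, and 2.54, 6.73 and 2.82 times in BLM-treated mice. Npnt over Pdgfra, in contrast, lay between 2.06 and 2.59 in all 6 libraries. Dcn over Pdgfra was 0.601 in unsorted, 1.01 in Lamp1-depleted and 0.446 in Lamp1-enriched cells of sham-treated mice, and 1.87 in unsorted and 1.30 in Lamp1-enriched cells of BLM-treated mice. With the lengths used, Dcn was thus above Pdgfra in FPKM in BLM unsorted and Lamp1-enriched cells and below it in the same sham cells. In Lamp1-depleted cells the pair had nearly equal FPKM in both treatments, at 0.892 for Dcn and 0.888 for Pdgfra in BLM.

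A list of 12 other genes of alveolar fibroblasts was lower in all its members in unsorted cells of BLM-treated mice, with a median log2 ratio of -1.76 and 11 genes lower by 2-fold or more, where 16% of all genes were. Itga8, the integrin subunit that binds nephronectin, had a log2 ratio of -2.21 and Slc7a10, an amino acid transporter, had the lowest at -2.88. Gpc3, a cell-surface glypican, had the highest at -0.74. In Lamp1-enriched cells all 12 were again below 0, with a median of -0.91 and 5 lower by 2-fold or more, where 7.81% of all genes were. The alveolar members had medians of -1.90 and -1.20 in these comparisons. This list and the adventitial list below were chosen with earlier results of these data known, so they are no independent check of the members.

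The 12 other adventitial genes divided, as the adventitial members did. In unsorted cells 6 were above and 6 below 0, with a median log2 ratio of 0.13, and 1 was higher and 3 lower by 2-fold or more, where 13.9% of all genes were higher and 16% lower. Col15a1, a basement membrane collagen, was at 2.05 and Fbn1, which forms microfibrils, at 0.74. Dpp4, a cell-surface peptidase, was at -1.77 and Igfbp4, a binding protein of insulin-like growth factors, at -0.63. In Lamp1-enriched cells 8 were above and 4 below 0, with a median of 0.16. There 4 were higher and 2 lower by 2-fold or more, where 10.2% of all genes were higher and 7.81% lower. The part of other cells in the levels of this list was not tested. The 10 pan-fibroblast genes had medians of -0.11 in unsorted and 0.71 in Lamp1-enriched cells, and Col1a1, the main fibrillar collagen chain, had log2 ratios of 2.17 and 3.24. The summed level of those 10 genes was 627 CPM in sham and 1095 CPM in BLM unsorted cells. However, 7 of the 10 had log2 ratios below 0, as had 12196 of the 22772 genes tested. The 3 above 0 were Col1a1 (92.4 and 415 CPM), Col1a2 (70.2 and 186 CPM) and Col3a1 (97.8 and 214 CPM). These 3 were higher by 2-fold or more, where 13.9% of all genes were. The summed level of the 6 alveolar members was 565 CPM in sham and 130.2 CPM in BLM unsorted cells.

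**Figure D4:**
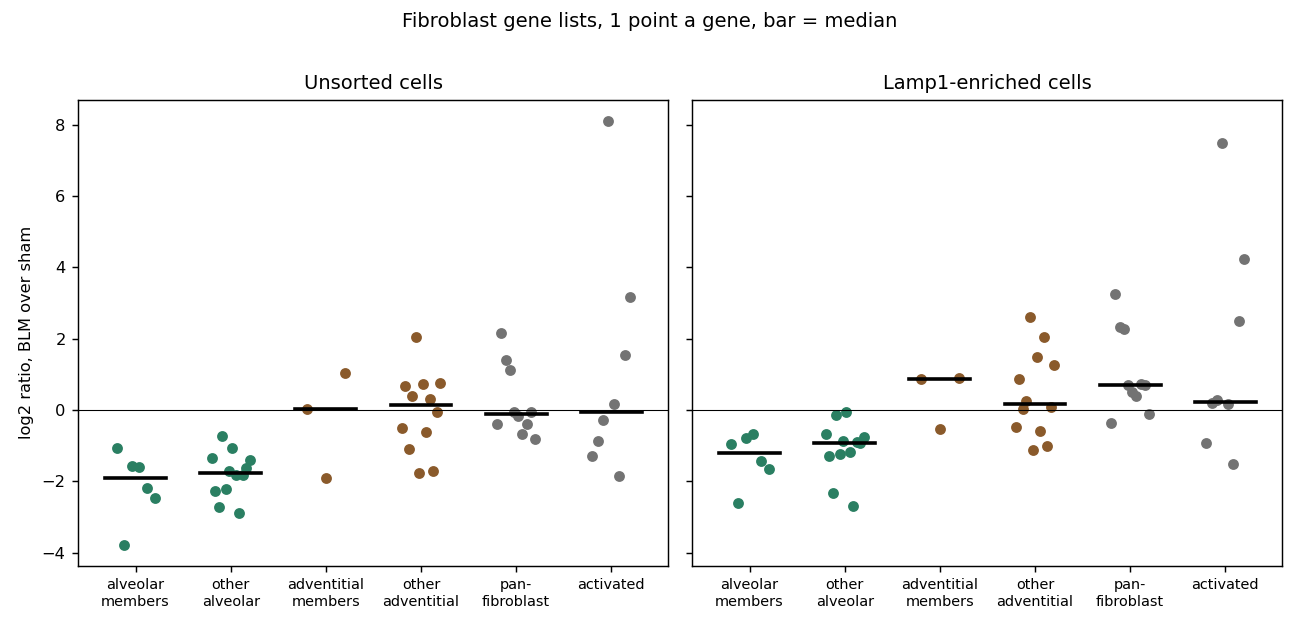
Log2 ratio of BLM over sham for each gene of 6 fibroblast lists, in unsorted (left) and Lamp1-enriched cells (right); 1 point is 1 gene and the bar is the median of the list. All genes of both alveolar lists lie below 0 in both panels, and both adventitial lists lie on both sides of 0.

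Genes that work with the members were listed too. Of the 5 other Pdgf ligands and receptors, 4 rose in Lamp1-enriched cells in the edgeR test of both treatments, and 3 without the block. Of all genes 21.5% rose in that test. Pdgfrb, the receptor of mural cells, had a log2 ratio of -1.37 in unsorted cells, BLM over sham, close to that of Pdgfra, while Pdgfc, a ligand of Pdgfra, was at 3.27. Of the 17 other Wnt pathway genes, 12 rose in Lamp1-enriched cells, or 9 with total counts only and 10 without the block. Lef1, a transcription factor also used by T cells, fell, where 19.2% of all genes did. In unsorted cells the 17 Wnt pathway genes had a median BLM over sham log2 ratio of -0.20. Of these, 13 were below 0, as were 12196 of the 22772 genes tested. Fzd4, a Wnt receptor of endothelium, was at -0.75. Itgb1, the partner chain of Itga8, had a ratio of -0.07 there. Of the 3 proteins that pair with Tcf21, Tcf4 rose and Tcf3 fell in Lamp1-enriched cells, and Tcf12 had a log2 fold change of -0.21, but with total counts only none of the 3 was called. Their BLM over sham ratios in unsorted cells lay between -0.21 and 0.10, against -2.19 for Tcf21. Among the 8 proteoglycans related to Dcn, 4 rose in Lamp1-enriched cells, where 21.5% of all genes did. This count was 2 without the block and 6 in a fit of all 6 libraries. In unsorted cells 6 were below 0, where 12196 of the 22772 genes tested were, with Ogn at -2.89, Prelp at -1.39 and Bgn at -0.39.

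The genes with the profiles most like those of the members were found over the 6 libraries, by the root mean square distance between log2 levels centred on their means, among 13928 protein-coding genes. Nearest to the mean profile of the alveolar members were Itga8 at 0.050, Bmp3 at 0.11, Abca8b at 0.15, Fgf10 at 0.17 and Nox4 at 0.19. That mean includes Wnt2, whose value at 0 reads is set by the prior count. Nearest to the mean of the 3 adventitial members were Mok, Avil, Cp, Cldn15 and Igsf3, at 0.12 to 0.18. That mean describes none of the 3 genes well, because their own profiles differ: Pi16 lay 1.95 from the mean of Dpt and Dcn, and Dpt lay 1.41 from the mean of Pi16 and Dcn but 0.42 from the alveolar mean. The reverse held for Ces1d, which lay 0.60 from the adventitial mean and 0.71 from the other alveolar members. Dcn lay 0.93 from the alveolar mean and 0.84 from the other adventitial members.

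Taken alone, and looked up after its values were seen, Pi16 was nearest to Cxcr2, a chemokine receptor of neutrophils, at a distance of 0.13, and to Arg2, Sez6l2, S100a9 and Cd101. Cxcr2 was at 7.42 CPM in unsorted, 3.90 in Lamp1-depleted and 3.43 in Lamp1-enriched cells of sham-treated mice, and at 12.7, 28.3 and 7.16 CPM in BLM-treated mice. A list of 10 neutrophil genes, written after that, summed to 95.9, 61.3 and 36.6 CPM in sham and to 181, 404 and 77.7 CPM in BLM in the same order. The list holds Cxcr2 and S100a9, found as near to Pi16, so its likeness to Pi16 is in part set by that choice. In unsorted cells the genes divided. Csf3r was at 29.9 CPM in sham and 79.0 CPM in BLM, and Mmp8 at 2.45 and 12.2 CPM. S100a8, S100a9, Mmp9 and Retnlg had ratios with intervals that include 0. The median log2 ratio was 0.45, beside 1.03 for Pi16, and 3 of 8 genes were higher by 2-fold or more, where 13.9% of all genes were. All 8 genes of the list with enough reads were higher by 2-fold or more in BLM than in sham Lamp1-depleted cells, where 13.7% of all genes were. The median log2 ratio was 2.62 there, beside 2.71 for Pi16. In the edgeR test all 8 list genes tested fell in Lamp1-enriched cells, as did Pi16 and 19.2% of all genes. Of these 8, 0 were called without the block and 1 with total counts only. Ly6g and Camp had too few reads to be tested there, and 1 gene of the list was at 0 reads in each sham sorted library. The part of neutrophil RNA in the Pi16 counts was not tested.

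Beside Dcn, the 5 mesothelial genes, among them Msln and Upk1b, summed to 23.3 CPM in unsorted, 4.83 in Lamp1-depleted and 5.02 in Lamp1-enriched cells of sham-treated mice, and to 30.7, 4.45 and 12.2 CPM in BLM-treated mice, with none at 0. Upk1b was among the 5 genes nearest to Dcn, at a distance of 0.32, but it departed from its list. Its BLM over sham log2 ratio in unsorted cells was -0.59, where the other 4 mesothelial genes were above 0. In sham its Lamp1-enriched over Lamp1-depleted ratio was 1.21, where the other 4 were below 0. In unsorted cells, BLM over sham, all 8 endothelial genes were below 0 beside the alveolar members, with a median log2 ratio of -0.84. Of these, 3 were lower by 2-fold or more, where 16% of all genes were. Of the 5 smooth muscle genes 3 were below 0 there, as were 12196 of the 22772 genes tested. By 2-fold or more 2 of these 5 were lower, where 16% of all genes were, and 0 were higher. The 5 pericyte genes had a median of -0.62, with 1 higher (Cspg4 at 2.15) and 2 lower by 2-fold or more. The 8 epithelial genes had a median of 0.08, with 4 above and 4 below 0, and 2 higher and 2 lower by 2-fold or more. They ranged from Foxj1 at 2.40 to Sftpc, a surfactant protein gene of alveolar epithelium, at -2.98. Of all genes 13.9% were higher and 16% lower by 2-fold or more. The 8 macrophage genes were all higher by 2-fold or more in BLM unsorted cells, where 13.9% of all genes were. They had a median log2 ratio of 3.14 and sums of 484 CPM in sham and 3135 CPM in BLM. In Lamp1-enriched cells the macrophage sums were 141 and 391 CPM. The part of these other cells in the ratios of the members was not tested.

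**Figure D5:**
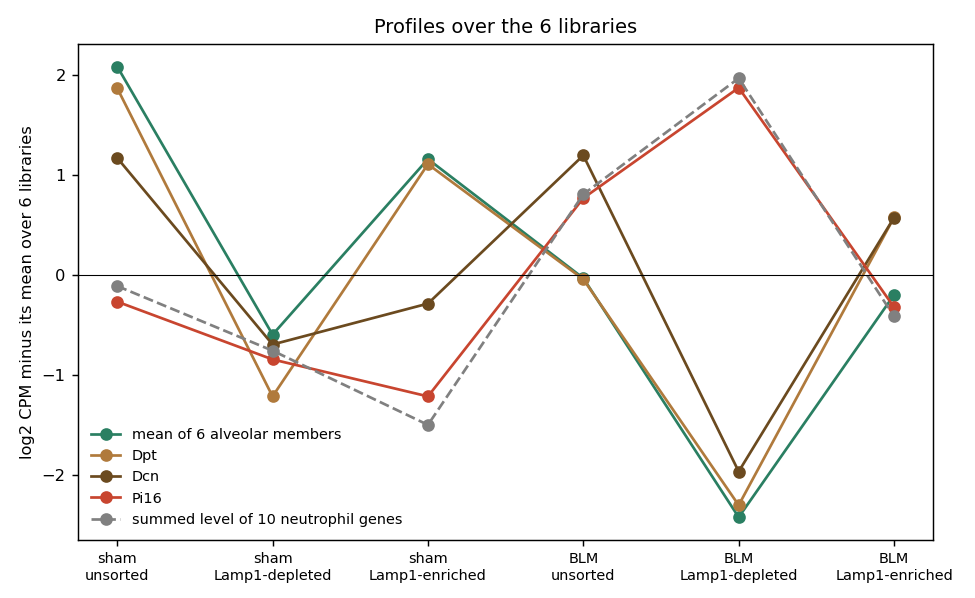
Log2 level minus its mean over the 6 libraries for the mean of the 6 alveolar members (green), Dpt (light brown), Dcn (dark brown), Pi16 (red) and the summed level of 10 neutrophil genes (grey, dashed). Dpt and the alveolar mean are both lowest in BLM Lamp1-depleted cells, Pi16 and the neutrophil sum are both highest there (the list was chosen after the profile of Pi16 was seen), and Dcn has its highest level in BLM unsorted cells, at 46.6 CPM.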

How the data were processed

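RNA of lung cells, unsorted or sorted into Lamp1-depleted and Lamp1-enriched fractions, was sequenced as paired reads of 150 bases, with 1 library per condition. The authors deposited raw read counts per gene; per the labels they used Trimmomatic 0.36, STAR 2.5.2b and featureCounts of Subread 1.5.2 on GRCm38, and DESeq2. The annotation release and strand setting are not given in the sources used here. Samples were grouped by their labels. Totals per library ranged from 30236120 to 52918696 reads.

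TMM factors and the quasi-likelihood test came from edgeR 4.0.16 (R 4.3.3), with filterByExpr, Benjamini-Hochberg adjustment over all genes tested and SE taken as the log2 fold change over the square root of F. The other values came from Python 3.11.15 with scipy 1.17.1. For log2 ratios a prior count of 0.5, in proportion to the library's size, was added, and a gene needed 10 reads or more in 1 of the libraries compared. Ratios had 95% Clopper-Pearson intervals. A gene at 3 reads or fewer was given a bound. Exon lengths, coordinates and names came from GENCODE release M21, which held 49056 of the 49315 genes; all 9 members were found and all 9 passed the filters. The steps were tested on simulated data.

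The members and lists were chosen with earlier results of these data known. Named were the members, in each list the 3 genes with the most reads and those with the largest and smallest ratio, and the 5 nearest profiles of each set among genes with at least 50 reads; of these the text names some. The nearest profiles of single members, the neutrophil list and the median with Wnt2 at its bound were added after values were seen. Alternatives were DESeq2 size factors, total counts with and without Gm26917 and Gm42418, a prior count raised to 2, a minimum of 1 or 50 reads, 4-fold, thinned counts, means for medians, and leaving out Ces1d or, added after seeing the data, Pi16 (and Inmt for the share of FPKM). For the test they were total counts, DESeq2 1.42.0, no filter, 6 libraries, no block and thinned counts. Leaving out a replicate does not apply to 1 library per condition.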

Additional observations from a re-analysis of the deposited data

Results flagged for a closer look

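The 3 adventitial members each went opposite ways in a pair of contrasts. Each contrast compares 1 library with 1, so the differences between contrasts were not tested. BLM over sham, the log2 ratio of Dcn was 0.86 (with a counting interval from 0.74 to 0.99) in Lamp1-enriched and -1.27 (-1.58 to -0.97) in Lamp1-depleted cells. Lamp1-enriched over unsorted, Dpt was at -0.76 (-0.88 to -0.64) in sham and 0.62 (0.44 to 0.80) in BLM. Lamp1-depleted over unsorted, Pi16 was at -0.58 (-0.90 to -0.26) in sham and 1.10 (0.89 to 1.32) in BLM. The BLM Lamp1-depleted library, with 38.4% of its reads on Gm26917, enters the Dcn and the Pi16 values and not the Dpt values. None of these 6 signs differed with DESeq2 size factors, total counts or totals without Gm26917 and Gm42418.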

How the results depend on the processing

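No paired analysis was possible because each condition has 1 library, all with the replicate number 1, so that numbers pair no samples and no library was left out; the test of the sort had treatment as its block. Of 264 summary values under alternatives, 220 stayed within the limits set and 44 moved; of 492 values of single members, 430 stayed, 51 moved, and 10 lost and 1 gained the call of the sorting test. Among 438 ratios of single members 4 lost a 2-fold call (Pi16 in unsorted cells at 0.77 with total counts and 0.86 without Gm26917 and Gm42418; Npnt at -0.91 and Dpt at -0.94 in Lamp1-depleted cells with DESeq2 size factors) and 9 gained one. No called value changed sign. The cause of a change was not tested, except that a scaling adds 1 constant to every ratio.

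With total counts only, unsorted BLM over sham medians were -2.16 (alveolar) and -0.24 (adventitial), with 0 members higher; without Gm26917 and Gm42418 the adventitial median was -0.15, with 0 higher. Lamp1-enriched over Lamp1-depleted, total counts gave an adventitial median of 0.24 in sham (0.19 without Gm26917 and Gm42418), and 2.22 (alveolar) and 3.10 (adventitial) in BLM. For BLM over sham in Lamp1-depleted cells they gave -1.94 (alveolar) and -1.80 (adventitial). For sham Lamp1-enriched over unsorted the alveolar median was -1.16 with total counts and -1.17 without Gm26917 and Gm42418. In BLM 2 members were lower with DESeq2 size factors, without Gm26917 and Gm42418, or with thinned counts.

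At 4-fold, unsorted cells had 0 members higher and 3 lower, sham sorting had 2 higher, BLM over sham had 1 lower in Lamp1-enriched and 1 in Lamp1-depleted cells, and Lamp1-enriched over unsorted had 0 lower in either treatment. The 1 in Lamp1-depleted cells was Wnt2, whose value at 0 reads is set by the prior count. Its bound given above is under 4-fold. The share of all genes past 4-fold was not calculated, so these counts cannot be set against it. With at least 50 reads, which leaves out Wnt2, BLM sorting had an alveolar median of 1.16 and a difference of -1.37.

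By means, the alveolar minus adventitial difference was 0.97 for sham sorting, 1.15 for BLM sorting (a change of sign), -1.76 for BLM over sham in Lamp1-enriched and -1.94 in Lamp1-depleted cells, and 0.13 (sham) and 0.20 (BLM) for Lamp1-enriched over unsorted. Without Ces1d it was -2.22 in unsorted cells, -0.37 for BLM sorting and -2.30 in Lamp1-enriched cells, where thinning gave -1.90. Without Pi16 it was -0.96 in unsorted cells, 0.43 for sham sorting, -1.36 in Lamp1-enriched cells, and 0.17 (sham) and 0.0079 (BLM) for Lamp1-enriched over unsorted.

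The sorting test called 4436 genes and 4 members with total counts, and 5077 genes and 3 members without the block for treatment. Inmt, Ces1d, Pi16 and Dcn lost the call in both (edgeR adjusted p from 0.0566 to 0.291), Wnt2 without the block (0.232) and Inmt with 6 libraries (0.0508), where Tcf21 gained it (0.0393).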
